A study of Mus musculus with 8 samples.

Results

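Matrix metalloproteinases (MMPs), the membrane-anchored ADAMs, the secreted ADAMTS proteases and the tissue inhibitors of metalloproteinases (TIMPs) were followed in YUMM5.2, a mouse melanoma cell line, cultured for 20 h with 4-OI or with DMSO, the control reagent. The members were all rows of the gene table whose symbol is Mmp, Adam, Adamts, Adamtsl or Timp with a number, and 84 of 55492 genes met this rule: 23 Mmp, 33 Adam, 24 Adamts (5 of them Adamtsl) and 4 Timp genes. The data are 8 polyA RNA sequencing libraries, 4 titled DMSO (treatment label Control) and 4 titled 4-OI (treatment label Itaconate-treated), all of the same line with the strain label C57B/6J. The series' text calls the agent a permeable itaconate, and 4-OI usually stands for 4-octyl itaconate, an ester that enters cells. For the dose, not given in the sources used here, no value can be stated, and no library was given unmodified itaconate. The comparison asks how transcripts of these proteases and their inhibitors differ between 4-OI and DMSO.

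MMPs are zinc-dependent enzymes that cut collagens, laminins, fibronectin and other matrix proteins, and most are secreted as inactive precursors. ADAMs sit in the cell membrane and release the outer part of other membrane proteins, such as growth factor precursors, a process called shedding. ADAMTS enzymes are secreted, bind matrix through thrombospondin repeats and process procollagens and large proteoglycans, while ADAMTS-like proteins share those repeats but have no protease domain. TIMPs bind the active site of the proteases and block it. In melanoma these families are known for their part in invasion, matrix remodelling and the release of surface ligands.

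Total counts ranged from 22962963 to 31361677 per library, and 13531 genes passed a filter on low counts and were tested with edgeR's quasi-likelihood test. Calls were made where the p adjusted by Benjamini-Hochberg over those genes was under 0.05, and CPM is a count scaled to the library's total and composition (TMM). The labels name 4 experiments per condition but no separate cultures, so the spread between libraries may be technical, and the p-values measure that spread alone. The labelled cell type was checked against markers. Of 12 melanocyte genes, 1 (Mitf) reached a mean of 1 TPM, and the pigment genes Tyr, Tyrp1, Dct and Mlana and their regulator Sox10 had at most 2 counts in any library. Markers of dedifferentiated melanoma reached that level in 8 of 9 genes, with Axl, Sox2 and Egfr among them, while Ngfr had at most 3 counts in any library. Melanocyte markers other than Mitf were thus at or near 0 here, and dedifferentiation markers other than Ngfr were present. Fibroblast genes were measured too, and their summed level was 999 to 1029.9 TPM with DMSO and 680.3 to 719.6 with 4-OI. Of those 10 genes, 7 reached 1 TPM, led by Col1a2 (575 TPM), Acta2 (223), Pdgfra (31.8) and Pdgfrb (16.8), while Lum was at 0 in every library, and Thy1 had at most 1 count. Immune markers summed to 21.1 to 23.4 TPM with DMSO and 21.9 to 24.5 with 4-OI, mostly from Cd14, and Adgre1, Lyz2, Nkg7 and S100a9 were among those at 0. Endothelial markers stayed below 1 TPM in sum in every library.

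Of the 84 members, 39 could be tested, 27 were detected below the filter and 18 had no count in any library. With 4-OI, 6 of the 39 were called higher and 20 lower. Over all genes tested, 19.3% were called higher and 19.6% lower, against 15.4% and 51.3% of the tested members. The larger changes were all falls: 9 members fell by 0.5 or more on the log2 scale, a size reached by 3.18% of all genes downward, and 0 rose by as much (Mmp23 came closest, at 0.496), where 2.96% of all genes did. Those 9 were Mmp9, Mmp16, Adam1a, Adamts2, Adamts3, Adamts7, Adamts9, Adamtsl4 and Timp3. In 17 members every library with 4-OI lay below every DMSO library, and in 6 every one lay above. The corresponding percentages over all genes tested were 18.0% and 17.4%. The median log2 fold change of the tested members was -0.17, beside 0.00 for all genes. The summed levels of the fibroblast and dedifferentiation markers were lower with 4-OI too (658 to 690.2 TPM with DMSO and 609 to 614 with 4-OI for the latter, of which 6 of 8 tested genes were lower and 1 higher), and their part in the falls of the members was not tested. The melanocyte sum went the other way (2.49 to 3.10 TPM with DMSO and 3.67 to 4.09 with 4-OI), and its 1 tested gene, Mitf, rose from 6.42 ± 0.415 to 9.99 ± 0.536 CPM (SD, n = 4). In bulk libraries, fewer cells of one state and less RNA per cell cannot be told apart.

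The families differed in their counts, beside 19.3% of all genes tested called higher and 19.6% lower. Among ADAMTS and ADAMTSL genes 9 of 14 tested members were lower and 1 was higher (median log2 fold change -0.28). Among MMPs 6 of 13 were lower and 3 higher (median -0.15). Among ADAMs 3 of 9 were lower and 2 higher (median 0.01), and the lower call of Adam1a did not hold in every fit. Of the 3 tested TIMPs 2 were lower and 0 higher (median -0.17). The difference between families was not tested.

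**Figure D1:**
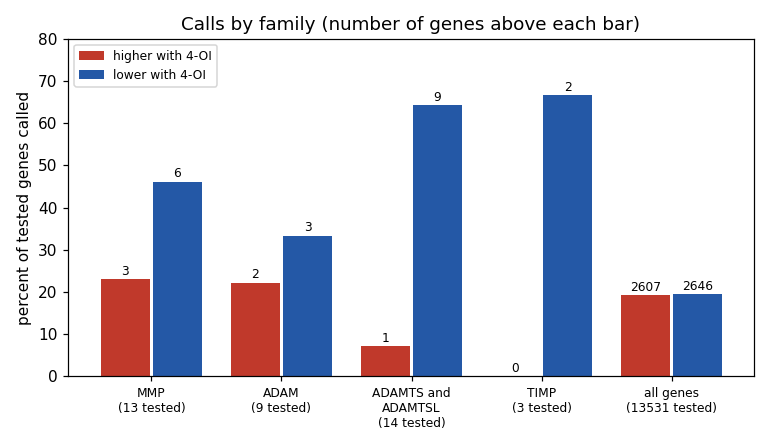
Bars give the percentage of tested genes of each family, and of all genes, that were called higher (red) or lower (blue) with 4-OI, with the number of genes above each bar. Lower calls outnumber higher calls in all 4 families, though only by 3 to 2 in ADAMs, while they are nearly equal over all genes. The lower call of the ADAM gene Adam1a did not hold in every fit.

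In mean TPM over the 8 libraries, a level per transcript length, the order of the top members was Timp1 (305), Mmp2 (221), Timp2 (175), Mmp14 (148), Adam15 (108), Adam9 (104) and Timp3 (81.2). In the DMSO libraries Adam15 spanned 105 to 113 TPM, Adam9 99.97 to 106 and Timp3 96.8 to 102, so Adam9 overlapped both of its neighbours there. With 4-OI Timp3 lay at 61.4 to 63.3 TPM, apart from both and below Adam10 (68.3 to 70.9). The highest ADAMTS gene, Adamts1, reached 24.0 TPM. Summed over the TIMP genes the level was 587 ± 5.35 TPM with DMSO and 536 ± 9.99 with 4-OI (SD, n = 4), and summed over ADAMTS and ADAMTSL genes it was 117 ± 2.27 TPM with DMSO and 97.4 ± 2.00 with 4-OI. For both sums the groups did not overlap. The MMP sum was 481 to 503 TPM with DMSO and 483 to 508 with 4-OI, the ADAM sum 315 to 334 TPM with DMSO and 325 to 333 with 4-OI, and for both the groups overlapped. These sums are descriptions and were not tested.

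**Figure D2:**
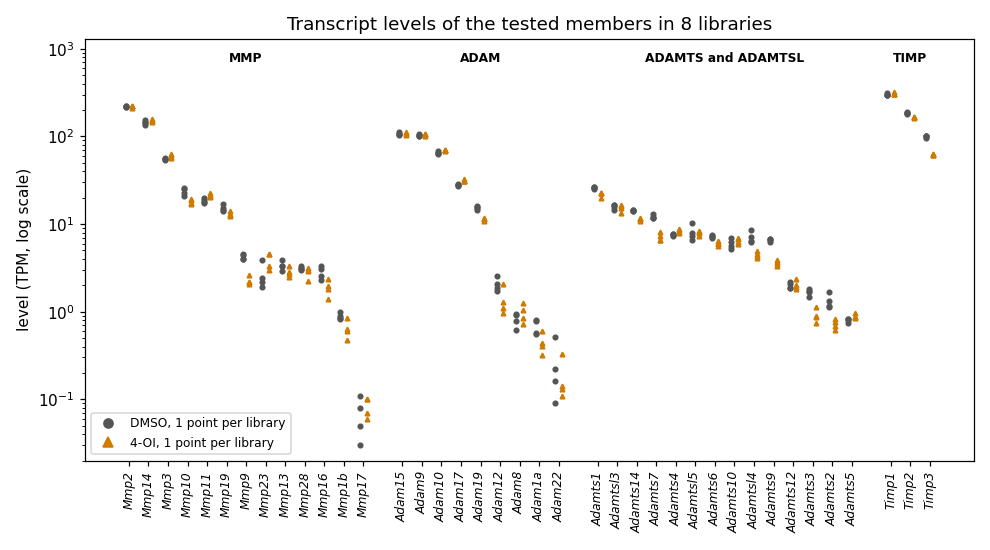
Each point is 1 library's TPM (log axis) of a tested member, circles for DMSO and triangles for 4-OI, ordered by mean level within each family. Mean levels span from 0.0750 TPM (Mmp17) to 305 TPM (Timp1), and the groups of the most abundant MMPs and ADAMs lie on each other while those of Timp3 and several ADAMTS genes stand apart.

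A stretch of chromosome 9 (7272514 to 7699585) holds 10 of the MMP genes, among them collagenases and stromelysins. AP-1, a dimer of FOS and JUN proteins, is known to drive several of them. The letters TGANTCA, which AP-1 can bind, were searched on both strands in the 250 bases before each RefSeq start (GRCm38.p6). They occurred in 6.75% of 32851 promoters of all genes and in 7 of the 10 MMP genes of this stretch. Outside the stretch, Adam19 was the only tested member with a match, and Adam20, Adam25 and Adam29, which had no count, held matches too. RefSeq promoter entries matched 53 of the 84 members, 27 of them tested, and Mmp2, Mmp9 and Adamts7 had none. In all, 11 of the 53 members with an entry held the AP-1 letters, and 5 of the 27 tested ones. The last 150 bases before the start are given for the tested genes of the stretch, which went different ways with 4-OI, and for Adam19, 5′ to 3′ on the gene's strand, with the match in capitals.
Mmp13, chr9:7272364-7272513, plus strand: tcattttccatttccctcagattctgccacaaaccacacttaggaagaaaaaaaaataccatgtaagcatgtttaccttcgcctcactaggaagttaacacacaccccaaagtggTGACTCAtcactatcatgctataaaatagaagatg
Mmp1b, chr9:7388027-7388176, minus strand: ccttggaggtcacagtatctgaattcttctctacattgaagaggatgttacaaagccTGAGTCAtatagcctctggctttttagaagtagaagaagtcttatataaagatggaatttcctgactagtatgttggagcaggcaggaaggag
Mmp3, chr9:7445672-7445821, plus strand: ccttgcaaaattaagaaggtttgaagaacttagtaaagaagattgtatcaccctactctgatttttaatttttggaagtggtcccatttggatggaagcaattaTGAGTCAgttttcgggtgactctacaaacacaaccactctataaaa
Mmp10, chr9:7502192-7502341, plus strand: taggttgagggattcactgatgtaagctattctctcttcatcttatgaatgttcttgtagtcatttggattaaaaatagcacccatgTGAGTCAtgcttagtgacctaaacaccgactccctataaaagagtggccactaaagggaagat
Adam19, chr11:46055834-46055983, plus strand: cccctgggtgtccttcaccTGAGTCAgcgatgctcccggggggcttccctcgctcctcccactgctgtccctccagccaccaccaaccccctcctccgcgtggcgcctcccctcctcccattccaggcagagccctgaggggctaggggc
The match begins 35 bases before the start in Mmp13, 46 in Mmp3, 63 in Mmp10, 93 in Mmp1b and 131 in Adam19. It reads TGACTCA in Mmp13 and TGAGTCA in the other 4. The antioxidant response core TGACNNNGC, a sequence that NRF2 dimers can bind, was present in 10.2% of all promoters and in 3 of 27 tested members with an entry (Adamts2, Adamtsl5 and Timp2). It can overlap the AP-1 letters, and no member held both. A match of letters describes the sequence and does not show binding.

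Among the secreted collagenases and stromelysins, Mmp3 rose while Mmp10 of the same stretch fell. Mmp3, a stromelysin with a broad range of matrix substrates (chromosome 9, 7445822 to 7455975), stood at 58.2, 61.3, 62.0 and 61.4 CPM with DMSO and at 69.1, 62.1, 66.8 and 65.0 with 4-OI, and every library with 4-OI lay above every DMSO library (log2 fold change 0.11, standard error 0.04, adjusted p = 0.0144, edgeR). Its call was lost without DMSO replicate 1 (adjusted p = 0.0581, edgeR). Mmp10, a stromelysin of the same stretch (chromosome 9, 7502352 to 7510240), stood at 21.6, 27.00, 25.9 and 24.1 CPM with DMSO and at 19.7, 17.4, 18.1 and 19.7 with 4-OI, without overlap of the groups (log2 fold change -0.39, standard error 0.06, adjusted p = 5.36e-05, edgeR). Mmp11, a stromelysin encoded on chromosome 10 that is activated by furin inside the cell, went the way of Mmp3. It stood at 23.1, 25.5, 24.5 and 26.2 CPM with DMSO and at 29.5, 27.2, 28.2 and 28.1 with 4-OI (log2 fold change 0.18, adjusted p = 0.00469, edgeR), and the groups did not overlap.

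The collagenase Mmp13, which cuts fibrillar collagen, had a small fall, from 5.83 ± 0.699 to 4.84 ± 0.575 CPM (SD, n = 4). Its libraries read 4.99, 6.70, 5.75 and 5.87 CPM with DMSO and 5.64, 4.82, 4.29 and 4.62 with 4-OI, so the groups overlapped (log2 fold change -0.27, adjusted p = 0.0428, edgeR). The call was lost without 4-OI replicate 2, 3 or 4, or without DMSO replicate 2, 3 or 4 (adjusted p = 0.0626 to 0.159, edgeR), and with DESeq2, scaling by library totals, limma on FPKM and limma on TPM (adjusted p = 0.0571 to 0.169). Mmp1b, a rodent relative of human interstitial collagenase, was counted 18, 18, 16 and 26 times with DMSO and 18, 11, 15 and 17 times with 4-OI and was not called (log2 fold change -0.49, adjusted p = 0.131, edgeR). Its close copy Mmp1a was below the filter, with counts of 7, 9, 14 and 13 and of 3, 8, 6 and 7, and the exact permutation test, two-sided, gave p = 0.0571 and 0.19 after adjustment over the 10 genes so tested. RSEM can divide reads between these 2 genes, so their levels are less certain. The other genes of the stretch were at or near 0: Mmp7, Mmp8 and Mmp20 had no count, Mmp27 had 1 and Mmp12 had 5 in all.

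The gelatinases Mmp2 and Mmp9, which degrade type IV collagen and denatured collagen, stood far apart. Mmp9 (chromosome 2, 164940780 to 164955850) showed the largest fall of all tested members. It stood at 8.34, 8.49, 9.26 and 9.65 CPM with DMSO and at 4.83, 4.57, 4.36 and 4.65 with 4-OI. By the fitted fold change the level with 4-OI was 51.4% of that with DMSO, and the groups were far from touching (log2 fold change -0.96, standard error 0.08, adjusted p = 5.6e-09, edgeR). Mmp2, the abundant gelatinase (chromosome 8, 92827291 to 92853420), stood at 447, 442, 452 and 447 CPM with DMSO and at 448, 448, 452 and 426 with 4-OI. The groups overlapped and no change was called (log2 fold change -0.01, standard error 0.02, adjusted p = 0.777, edgeR). Its sign was not stable, and library totals gave 0.01.

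Of the membrane-type MMPs, which are anchored at the cell surface, Mmp14 was the abundant one. Mmp14, the main activator of pro-MMP2 (chromosome 14, 54431612 to 54445364), stood at 197, 196, 197 and 191 CPM with DMSO and at 195.5, 203, 204 and 194 with 4-OI and was not called (log2 fold change 0.03, standard error 0.02, adjusted p = 0.35, edgeR). Mmp16, another membrane-type enzyme, fell from 4.75 ± 0.333 to 3.30 ± 0.281 CPM (SD, n = 4). Its libraries read 4.34, 4.99, 5.05 and 4.62 CPM with DMSO and 3.71, 3.08, 3.16 and 3.24 with 4-OI, and the groups did not overlap (log2 fold change -0.52, adjusted p = 0.000325, edgeR). Mmp17, anchored by a lipid tail, had 4 to 14 counts per library and was not called (log2 fold change 0.25, standard error 0.37). Mmp24 and Mmp15 were detected below the filter with 28 and 5 counts in all, and Mmp25 had none.

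Of the remaining MMPs, 3 had calls that did not hold in every fit. Mmp23, a short MMP without the usual C-terminal domain, was the one higher: it stood at 1.52, 1.16, 1.19 and 0.897 CPM with DMSO and at 1.55, 1.702, 1.53 and 1.89 with 4-OI (log2 fold change 0.50, adjusted p = 0.0414, edgeR), without overlap. Its call was lost without 4-OI replicate 2, 3 or 4, or without DMSO replicate 2, 3 or 4 (adjusted p = 0.0524 to 0.155, edgeR), and with DESeq2, limma on FPKM and limma on TPM (adjusted p = 0.0873 to 0.13). Mmp28 (epilysin) stood at 5.71, 6.41, 6.28 and 5.96 CPM with DMSO and at 5.49, 5.60, 5.03 and 4.71 with 4-OI (log2 fold change -0.23, adjusted p = 0.0389, edgeR), all libraries with 4-OI lying below those with DMSO. Its call was lost without 4-OI replicate 3 or 4, or without DMSO replicate 2, 3 or 4 (adjusted p = 0.0578 to 0.122, edgeR), and with DESeq2, scaling by library totals, limma on FPKM, limma on TPM and no count filter (adjusted p = 0.0572 to 0.354). Mmp19, which acts on basement membrane proteins, had a log2 fold change of -0.15 (adjusted p = 0.0329, edgeR) with overlapping groups. Its call was lost without 4-OI replicate 1, 2 or 4, or without DMSO replicate 2, 3 or 4 (adjusted p = 0.0559 to 0.117, edgeR), and with DESeq2 and scaling by library totals (adjusted p = 0.0567 to 0.0847). Mmp28 and Mmp19 overlap genes of the opposite strand (1700020L24Rik and Tmem198b), and for the strand setting of the counting no label gives a value. Mmp21 was detected with 3 counts in all.

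**Figure D3:**
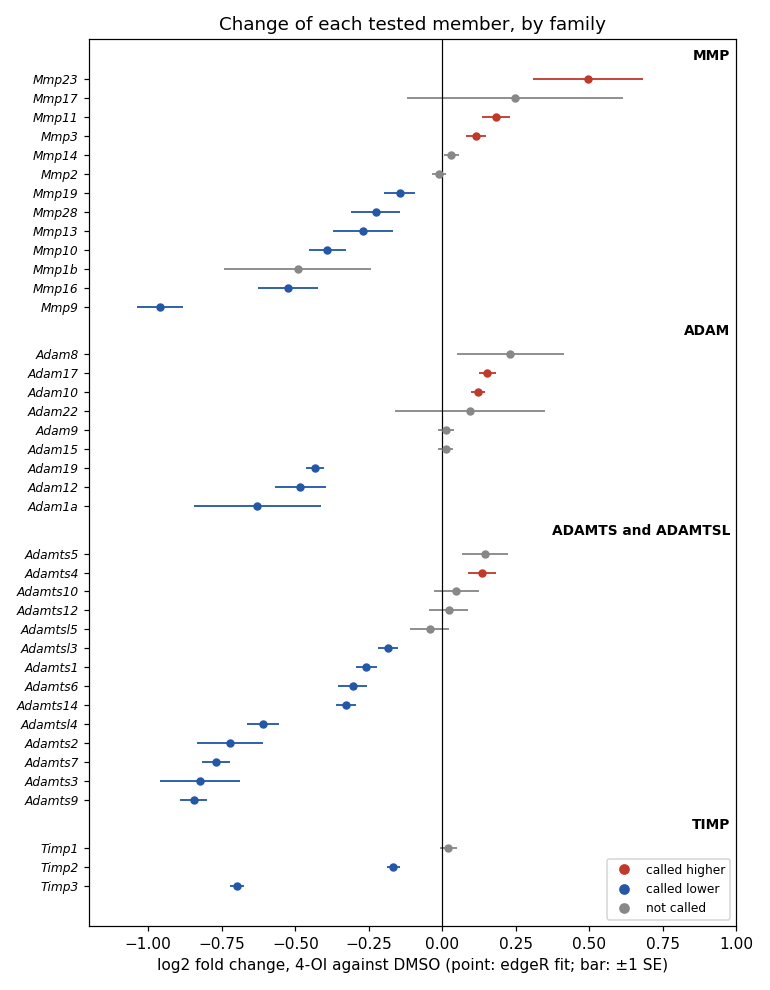
Points give the log2 fold change of 4-OI against DMSO of the 39 tested members with 1 standard error, red for called higher, blue for called lower and grey for not called. Changes reach -0.96 in Mmp9 and -0.85 in Adamts9 downward, while no member called higher exceeds 0.50 (Mmp23).

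In the ADAM family the sheddases Adam10 and Adam17 rose slightly, and Adam19 and Adam12 fell. Adam10 (chromosome 9, 70678997 to 70780229), which cuts Notch and many adhesion molecules, stood at 175, 175, 183 and 175 CPM with DMSO and at 192, 189, 193 and 196 with 4-OI, without overlap (log2 fold change 0.12, standard error 0.02, adjusted p = 0.000497, edgeR). Adam17 (chromosome 12, 21323509 to 21373632), the protease that releases TNF and ligands of the EGF receptor, stood at 80.4, 86.1, 83.7 and 81.9 CPM with DMSO and at 93.4, 92.0, 91.8 and 91.8 with 4-OI, again without overlap (log2 fold change 0.15, standard error 0.03, adjusted p = 0.000194, edgeR). Both changes are small. In the other direction, Adam19 (meltrin beta, a sheddase of neuregulin 1; chromosome 11, 46055992 to 46147343) stood at 67.6, 64.2, 65.9 and 66.5 CPM with DMSO and at 49.7, 48.2, 50.2 and 47.7 with 4-OI and Adam12 (meltrin alpha) at 7.54, 7.82, 7.20 and 7.40 CPM with DMSO and at 4.87, 6.38, 4.99 and 5.19 with 4-OI. In neither gene did the groups overlap. The log2 fold change was -0.43 for Adam19 (adjusted p = 1.14e-09, edgeR) and -0.48 for Adam12 (adjusted p = 0.000164, edgeR). The call of Adam12 was lost with limma on FPKM and limma on TPM (adjusted p = 0.0741 to 0.0753).

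Adam15 and Adam9, sheddases that were the most abundant ADAM transcripts, were not called. Adam15 stood at 188, 188, 197 and 190.0 CPM with DMSO and at 189, 200.3, 193 and 187 with 4-OI (log2 fold change 0.01, standard error 0.03, adjusted p = 0.779, edgeR). Adam9 stood at 274, 284, 292 and 277 CPM with DMSO and at 289.6, 272, 286 and 288 with 4-OI (log2 fold change 0.01, standard error 0.03, adjusted p = 0.77, edgeR). In both genes the groups overlapped. Adam8, a sheddase best known in leukocytes, and Adam22, a neuronal member without protease activity, were scarce and not called (log2 fold changes 0.23 and 0.09, standard errors 0.18 and 0.26). Of the 3 members put in the group without protease activity (Adam11, Adam22 and Adam23), Adam11 and Adam23 stayed below the filter with 70 and 3 counts in all.

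Most ADAM genes known from testis or sperm were silent here. Of the 21 members put in that group, 12 had no count (Adam2, Adam3, Adam6a, Adam6b, Adam20, Adam24, Adam25, Adam26a, Adam26b, Adam29, Adam34 and Adam39), 8 were detected below the filter and Adam1a was tested. The counts of Adam1a were 56, 34, 44 and 44 with DMSO and 39, 32, 33 and 23 with 4-OI (log2 fold change -0.63, adjusted p = 0.0264, edgeR), and the groups overlapped. Its call was lost without 4-OI replicate 3 or 4, or without DMSO replicate 1 or 3 (adjusted p = 0.0552 to 0.106, edgeR), and with DESeq2, limma on FPKM and limma on TPM (adjusted p = 0.066 to 0.0874). The annotated span of Adam1a lies across Mapkapk5 on the same strand (906 to 1438 counts per library), and reads shared by both cannot be told apart. Its copy Adam1b had no count with DMSO and 2, 2, 4 and 4 counts with 4-OI. For Adam1b the exact permutation p was 0.0286, the smallest possible with groups of 4, and 0.143 adjusted over those 10 genes. A count of 0 in a DMSO library allows up to 0.131 CPM at 3 counts in the shallowest of these libraries, counting error only. The others detected were Adam4 (69 counts in all), Adam21 (54), Adam32 (17), Adam5 (11), Adam30 (3), Adam7 (1) and Adam18 (1), while the sheddases Adam33 and Adam28 had 3 and 2.

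The ADAMTS family held the most falls, and all 3 procollagen N-proteinases were among them. These enzymes, Adamts2, Adamts3 and Adamts14, remove the N-terminal propeptide of fibrillar procollagens. Adamts2 (chromosome 11, 50602084 to 50807573) stood at 4.65, 4.33, 4.96 and 4.58 CPM with DMSO and at 3.25, 2.304, 2.63 and 3.05 with 4-OI (log2 fold change -0.72, standard error 0.11, adjusted p = 3.83e-05, edgeR). Adamts3 (chromosome 5, 89677087 to 89883334) stood at 3.16, 3.62, 3.78 and 3.81 CPM with DMSO and at 2.01, 1.67, 2.56 and 1.86 with 4-OI (log2 fold change -0.82, standard error 0.14, adjusted p = 7.27e-05, edgeR). Both are scarce transcripts, and in both every library with 4-OI lay below every DMSO library. Adamts14 (chromosome 10, 61197112 to 61273438), the most abundant of the 3 at 12.9 TPM, stood at 50.8, 50.1, 52.3 and 50.9 CPM with DMSO and at 42.0, 40.8, 41.3 and 38.7 with 4-OI (log2 fold change -0.33, standard error 0.04, adjusted p = 3.42e-07, edgeR), also without overlap.

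Of the proteoglycanases, which cut aggrecan and versican, 2 fell and 1 rose. Adamts9 (chromosome 6, 92772699 to 92943492) stood at 33.5, 35.4, 36.0 and 34.5 CPM with DMSO and at 20.3, 19.7, 19.3 and 18.3 with 4-OI (log2 fold change -0.85, standard error 0.05, adjusted p = 1.25e-11, edgeR). Its libraries with 4-OI lay far below those with DMSO. Adamts1 (chromosome 16, 85793827 to 85803113), the most abundant of the family, stood at 87.4, 86.5, 88.6 and 84.9 CPM with DMSO and at 75.5, 73.1, 75.4 and 66.6 with 4-OI (log2 fold change -0.26, standard error 0.04, adjusted p = 9.2e-06, edgeR), without overlap. Adamts4, known as an aggrecanase, had a log2 fold change of 0.14 (adjusted p = 0.0282, edgeR) without overlap, and its call was lost without 4-OI replicate 2 or 3, or without DMSO replicate 1 or 4 (adjusted p = 0.058 to 0.117, edgeR), and with DESeq2, limma on FPKM and limma on TPM (adjusted p = 0.0822 to 0.116). Adamts5, the other main aggrecanase, was not called (log2 fold change 0.14, standard error 0.08, adjusted p = 0.154, edgeR), but was called with a GC and length correction (adjusted p = 0.0245). Adamts8, Adamts15 and Adamts20 were detected below the filter with 8, 2 and 1 counts.

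Adamts7, which cuts cartilage oligomeric matrix protein and is known from vascular remodelling, stood at 38.6, 39.8, 38.7 and 38.8 CPM with DMSO and at 25.3, 20.8, 22.7 and 22.7 with 4-OI (chromosome 9, 90163069 to 90208071). The groups were clearly apart (log2 fold change -0.77, standard error 0.05, adjusted p = 1.36e-10, edgeR), while Adamts12, the other protease with that substrate, was not called (log2 fold change 0.02, standard error 0.07). Adamts6, linked to fibrillin microfibrils, stood at 31.2, 30.0, 34.1 and 33.8 CPM with DMSO and at 27.4, 24.8, 26.6 and 25.8 with 4-OI without overlap (log2 fold change -0.30, adjusted p = 5.23e-05, edgeR), and its close relative Adamts10 was not called (0.05, standard error 0.08). Adamts13 and Adamts16 had no count, and Adamts17, Adamts18 and Adamts19 had 4, 4 and 1 in all.

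ADAMTS-like proteins have no protease domain and bind fibrillin microfibrils. Adamtsl4 (chromosome 3, 95676201 to 95687917) stood at 18.7, 16.9, 16.6 and 17.8 CPM with DMSO and at 12.02, 11.6, 11.4 and 11.0 with 4-OI (log2 fold change -0.61, standard error 0.06, adjusted p = 2.75e-08, edgeR). Adamtsl3 stood at 61.9, 61.2, 64.5 and 60.7 CPM with DMSO and at 53.2, 53.6, 55.1 and 56.4 with 4-OI (log2 fold change -0.18, adjusted p = 0.000137, edgeR). In both the groups did not overlap, but the call of Adamtsl3 was lost with limma on FPKM and limma on TPM (adjusted p = 0.62 to 0.674). Adamtsl5 was not called (log2 fold change -0.04, standard error 0.07). Adamtsl2, below the filter, had 3, 3, 3 and 4 counts with DMSO and 1, 2, 1 and 1 with 4-OI (exact permutation p = 0.0286, 0.143 adjusted over the same 10 genes), and Adamtsl1 had 41 in all.

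**Figure D4:**
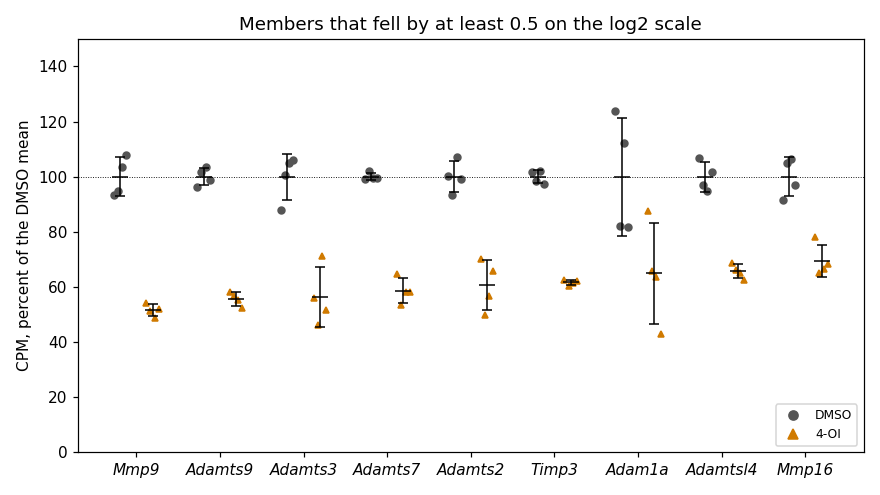
For the 9 members that fell by at least 0.5 on the log2 scale, points give each library's CPM as a percentage of the gene's DMSO mean, circles for DMSO and triangles for 4-OI, with the mean and SD of each group in black. The groups are apart in all of them but Adam1a, which has the widest spread.

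The inhibitors split. Timp3, which stays bound to the matrix and also blocks ADAM17 and aggrecanases (chromosome 10, 86300372 to 86349506), stood at 325, 315, 326 and 312 CPM with DMSO and at 200.2, 192, 197 and 198 with 4-OI. The libraries of a group lay within a few percent of each other, and the groups were far apart (log2 fold change -0.70, standard error 0.02, adjusted p = 9.34e-15, edgeR). Timp2, which inhibits MMPs and takes part in the activation of pro-MMP2 by MMP14 (chromosome 11, 118301069 to 118355740), stood at 457, 459.9, 471 and 451 CPM with DMSO and at 412, 409, 415 and 402 with 4-OI. It fell by little but without overlap (log2 fold change -0.17, standard error 0.02, adjusted p = 8.56e-06, edgeR). Timp1, the secreted inhibitor that many stimuli induce (chromosome X, 20870166 to 20874735), stood at 121, 122, 122 and 132 CPM with DMSO and at 128, 125, 125 and 126 with 4-OI. Its groups overlapped and it was not called (log2 fold change 0.02, standard error 0.03, adjusted p = 0.61, edgeR). Timp4 had a single count, in 1 library with 4-OI.

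Each of the tested TIMP genes overlaps another gene. Timp1 and Timp3 lie inside the synapsin genes Syn1 and Syn3 on the opposite strand. Syn3 had 1 to 5 counts per library, beside 5180 to 9722 of Timp3. Syn1 had 50 to 148 counts and was higher with 4-OI (log2 fold change 0.84, edgeR adjusted p = 5.74e-06), beside 2773 to 4118 of Timp1. Cep295nl, on the same strand within Timp2, had 92 to 120 counts beside 10673 to 14081 of Timp2, and was lower with 4-OI (log2 fold change -0.30, adjusted p = 0.0384, edgeR). The part of these overlapping genes in the values of the TIMPs was not tested.

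Other genes that act with these families were counted from lists drawn up from general knowledge, with earlier results of these data already known. The plasminogen system, whose protease plasmin can activate pro-MMPs, had 2 of 8 tested genes higher and 2 lower (median log2 fold change 0.07), where 19.3% of all genes were higher and 19.6% lower. Plau, the urokinase that makes plasmin, fell from 100.04 ± 3.49 to 59.8 ± 1.07 CPM (SD, n = 4), while its receptor Plaur rose from 48.8 ± 1.33 to 72.1 ± 2.91 CPM. Anxa2, a plasminogen receptor, had a log2 fold change of -0.29. Among regulators of metalloproteases 3 of 12 were higher and 3 lower (median -0.00). Both lists' shares lie near those over all genes. The tetraspanins Tspan17 (0.41) and Tspan15 (0.29), partners of ADAM10, were higher, and Lrp1 (-0.21), the receptor that clears MMPs and TIMPs from the surroundings, was lower together with Sparc (-0.22), a matrix protein.

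Substrates of both enzyme groups were mostly lower, where 19.6% of all genes were. Of proteins that ADAMs shed, 17 of 27 were lower and 5 higher (median log2 fold change -0.18). The EGF receptor ligand Areg rose from 6.49 ± 0.299 to 11.8 ± 0.559 CPM (SD, n = 4) and Btc had a log2 fold change of 0.70. Nrg1, the neuregulin that Adam19 can release, fell from 22.2 ± 1.71 to 15.1 ± 0.413 CPM, and the membrane-bound chemokine Cxcl16 had a log2 fold change of -0.92. Of matrix substrates 13 of 19 were lower and 1 higher (median -0.43). Col1a1, a fibrillar collagen chain whose propeptide the N-proteinases remove, fell from 20.3 ± 0.840 to 7.75 ± 0.572 CPM, the proteoglycan Dcn from 1.78 ± 0.352 to 0.680 ± 0.128 CPM, and the basement membrane linker Nid1 rose from 197 ± 4.63 to 291 ± 6.99 CPM. Col1a1, Dcn and Col1a2 (log2 fold change -0.54) also stand in the fibroblast list, of which 6 of 7 tested genes were lower and 1 higher. Axl and Cdh2, both lower, stand among the shed proteins and in the list of dedifferentiation markers. The part of the shifts of those marker lists in the changes of these substrates was not tested.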

How the data were processed

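RNA of 8 libraries was measured, and each library's group and replicate number come from its title, its column from its description. RSEM 1.3.3, STAR 2.7.8a, cutadapt 2.3, MultiQC 1.7, FastQC 0.11.8 and the build GRCm38 are named in the submitters' processing notes. Not given in the sources used here: tool settings, annotation release and strandedness. The authors deposited expected counts (whole numbers in every cell), TPM and FPKM for 55492 genes.

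The counts were tested with edgeR 4.0.16 in R 4.3.3: filterByExpr (minimum count 10), TMM scaling, quasi-likelihood F test (two-sided, no covariates) between the 2 groups of 4. The standard error is the size of the log2 fold change divided by the square root of F. The members, context lists and tests were chosen with earlier results of these data known. Members below the filter with 10 or more counts were compared by an exact permutation test over 70 arrangements (CPM on library totals). Values in every library are printed for the TIMPs, called members with a log2 change of 0.5 or more, the 20 largest called changes and the 6 highest in TPM; others were added after their values were seen. Of each context list, up to 2 genes per direction are named. Alternatives used DESeq2 1.42.0 and limma 3.58.1, on log2(value + 1) or log2(TPM + 0.1). The edgeR procedure was tested on counts simulated with the dispersions of these libraries. Such counts cannot show whether the spread between libraries is technical. Positions are from GENCODE M21 (GRCm38), promoters from RefSeq, and of the members with several starts the one nearest the GENCODE start was taken. Pairs of libraries of a group differed by 1.90 to 4.79 times sampling noise, so each counted once. The protein sequences planned for comparison were not analysed here. Figures were drawn with matplotlib 3.10.9.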

Additional observations from a re-analysis of the deposited data

Results flagged for a closer look

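In 6 of 78 groups of 4 libraries, 1 library's CPM stood apart from the other 3 by a gap past Dixon's critical value for groups of that size. Chance alone gives about 1 in 20 such groups. Adam10 stood at 183 CPM in DMSO replicate 3 and at 175 in each of the others. Adam17 read 93.4 CPM in 4-OI replicate 1, beside 91.8 to 92.0. The value of Adamts10 in 4-OI replicate 1 was 13.1 CPM, with the rest at 10.7 to 11.1. Adamts7 in DMSO replicate 2 had 39.8 CPM against 38.6 to 38.8. For Mmp2, 4-OI replicate 4 gave 426 CPM where the others gave 448 to 452. Timp1 had 132 CPM in DMSO replicate 4 and 121 to 122 in the rest. The called changes of Adam10, Adam17 and Adamts7 held without the library in question, and Adamts10, Mmp2 and Timp1 were not called with or without it.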

How the results depend on the processing

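Of the 26 called members, 17 (14 lower and 3 higher) kept their direction and call in all 10 alternatives and all 8 fits without 1 library. The alternatives gave 4 to 7 members higher and 15 to 20 lower, and the fits without 1 library 4 to 6 and 16 to 20. The number of genes tested differed between some alternatives. DESeq2 gave 4 higher and 16 lower among 44 members, beside 2117 and 2192 of 15014 genes. The GC and length correction gave 7 and 20 of 39 members, beside 2555 and 3069 of 13531 genes. Over all genes the fits without 1 library gave 2249 to 2522 higher and 2369 to 2666 lower. Limma on the normalised values gave fewer lower calls over all genes than the 2646 of edgeR: 1620 for log2(TPM + 1), 1615 for log2(TPM + 0.1) and 1535 for log2(FPKM + 1). Higher calls were fewer too, and made up 52.1%, 52.0% and 55.2% of the calls of these fits, beside 49.6% with edgeR. The cause was not tested. The ADAMTS median was -0.22 on log2(FPKM + 1). Without 1 library the family medians spanned -0.203 to -0.110 (MMP), 0.00378 to 0.0319 (ADAM), -0.298 to -0.257 (ADAMTS) and -0.176 to -0.155 (TIMP). A filter blind to the groups left out Mmp17 and gave the same 6 and 20 calls. With the replicate number as a block, 5 members were higher and 19 lower, and 2526 and 2618 genes in all. The calls of Mmp13 and Mmp23 were lost. Same-numbered libraries deviated together in pairs 1 and 3 (0.463 and 0.185) but not in 2 and 4 (-0.0646 and -0.0328), so the numbers were not taken to pair them. Sign changes occurred only in members that were not called. They were, as log2 fold changes, Adam9 with the GC and length correction (-0.00306), Mmp2 with library totals (0.00779) and, on log2(TPM + 1), log2(TPM + 0.1) and log2(FPKM + 1), Mmp2 (0.00474, 0.00476 and 0.0131), Adam22 (-0.0755, -0.244 and -0.0575) and Adamtsl5 (0.00165, 0.00349 and 0.00788). Without 1 library the sign changed within the ranges of Adamts10 (-0.0159 to 0.0895), Adamts12 (-0.0220 to 0.0629), Adam15 (-0.00852 to 0.0269), Mmp2 (-0.0203 to 0.00894), Adam9 (-0.00199 to 0.0319) and Adam22 (-0.0334 to 0.331). Depth limits Mmp17, Adam22, Mmp1b and Adam1a, whose standard errors are the widest.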

Other observations

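Of 15 tested AP-1, ETS and RUNX factors, which can act on genes of these proteases, 4 were higher and 4 lower, and their median log2 fold change was -0.03. Over all genes tested 19.3% were higher and 19.6% lower, so these shares lie near the background. Fosl1, a FOS-family member of AP-1, rose from 136 ± 4.29 to 183 ± 5.93 CPM (SD, n = 4), and Ets2 had a log2 fold change of 0.22. Ets1 fell from 126 ± 3.82 to 94.9 ± 2.43 CPM, and Junb, a JUN-family member, had a log2 fold change of -0.26. Other proteases that act outside cells or in lysosomes went 4 higher and 3 lower among 9 tested, beside the same 19.3% and 19.6% of all genes. The cathepsins Ctsd (0.45) and Ctsb (0.23) were higher. The secreted serine proteases Prss23 (-0.79) and Htra1 (-0.38) were lower.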
